A study of Saccharomyces cerevisiae with 10 samples.

Results

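SAGA is a transcriptional coactivator of budding yeast, and the strains described here each lacked 1 of 9 genes of its structural core, its acetyltransferase module or its module that binds the TATA-binding protein (TBP). They were found by gene symbol in the probe annotation, which named 5325 deletion strains, and all 9 were on the array. SPT7, SPT20 and HFI1 (also called ADA1) encode the core. GCN5, ADA2, NGG1 (also called ADA3) and SGF29 encode the acetyltransferase module, and SPT3 and SPT8 the TBP module. SAGA genes of the deubiquitinase module are given only for comparison.

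A pool of 5896 heterozygous diploid knockout strains of Saccharomyces cerevisiae was sporulated, and MATa haploids were selected from it at 30 °C on magic medium with benomyl or with none. Benomyl is a tubulin-binding drug that takes microtubules apart. The DNA tags that identify each strain, an uptag and a downtag, were amplified from genomic DNA and hybridised to a 2-colour tag array. There were 10 arrays, 1 each at 0, 1, 5, 10, 15, 20, 25, 30, 35 and 40 µg/ml benomyl, with 2 days of selection at 0 to 10, 3 days at 15 and 4 days at 20 to 40 µg/ml, for the pool with drug and the pool without drug alike. On the array at 0 µg/ml neither pool had drug. No dose was repeated, dose and days rose together, nothing says that the arrays came from separate sporulations, and p-values thus rest on how single arrays scatter around a fitted line or mean.

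The values are log2 ratios between the tag signals of the pools, centred on the median named spot of its array. Per the labels, the pool without drug carried Cy5 and the pool with drug Cy3. With Cy5 as the numerator, as is likely but not given in the sources used here, the ratio sets the no-drug pool over the drug pool. A ratio that fell with dose then means a strain that became relatively more abundant in the drug pool, and all signs would turn were the ratio the other way round. Values are relative to the median strain, and the ratio does not show which of the pools changed. Across strains the SD of the log2 values was 0.51 without drug and 1.46 at the top dose. A given log2 value is thus less extreme at high dose. The place of a strain among all strains is given for some values. At 40 µg/ml the share of strains lower was 2.46% for SPT8, 3.83% for SGF29, 4.36% for SPT3 and 4.94% for HFI1. It was 10.3% for NGG1, 25.5% for SPT7, 32.4% for ADA2, 35.1% for SPT20 and 71.5% for GCN5.

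SAGA brings acetyltransferase activity and TBP to promoters. Gcn5 is the catalytic subunit that acetylates histone H3, Ada2 and Ngg1 anchor it and shape its activity, and Sgf29 binds methylated lysine 4 of histone H3 through its Tudor domains. Spt3 and Spt8 contact TBP and help to deliver it to TATA boxes. Spt7, Spt20 and Hfi1 hold the complex together, and strains without them are known to grow more poorly than strains without the TBP module.

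Of the 9 strains, 5 had ratios that fell with dose in a straight line fitted over the 10 arrays, and none rose. They lacked SGF29, SPT8, SPT3, HFI1 and NGG1. Over all strains the same test called 9.13% lower and 10.3% higher. The median fitted log2 change from 0 to 40 µg/ml was -1.78 for the 9 strains and 0.09 for all 5325. SPT7, SPT20, GCN5 and ADA2 did not pass the threshold of an adjusted p of 0.05, and the fitted changes of GCN5 and ADA2 were above 0. In the tests between strains, GCN5 differed from all 5 strains that fell.

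The tags lie in 2 sections of the array layout, and spots of a strain in the first and the second section were taken to read different tags. ADA2 and SGF29 had 2 spots, 1 in each section, and the other strains 12 spots, 6 in each. Over all strains the sections correlated at -0.05 on the array at 0 µg/ml and 0.05 at 1 µg/ml, against 0.35 to 0.67 on the other arrays. The agreement between sections differed widely between the 9 strains. The mean absolute gap between sections over the 10 arrays was 0.25 on the log2 scale for SPT8 and 0.29 for SGF29, against a median of 0.52 over all strains. It was 1.77 for SPT3, 1.36 for ADA2, 1.27 for SPT7, 1.02 for HFI1 and 0.99 for SPT20.

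**Figure D1:**
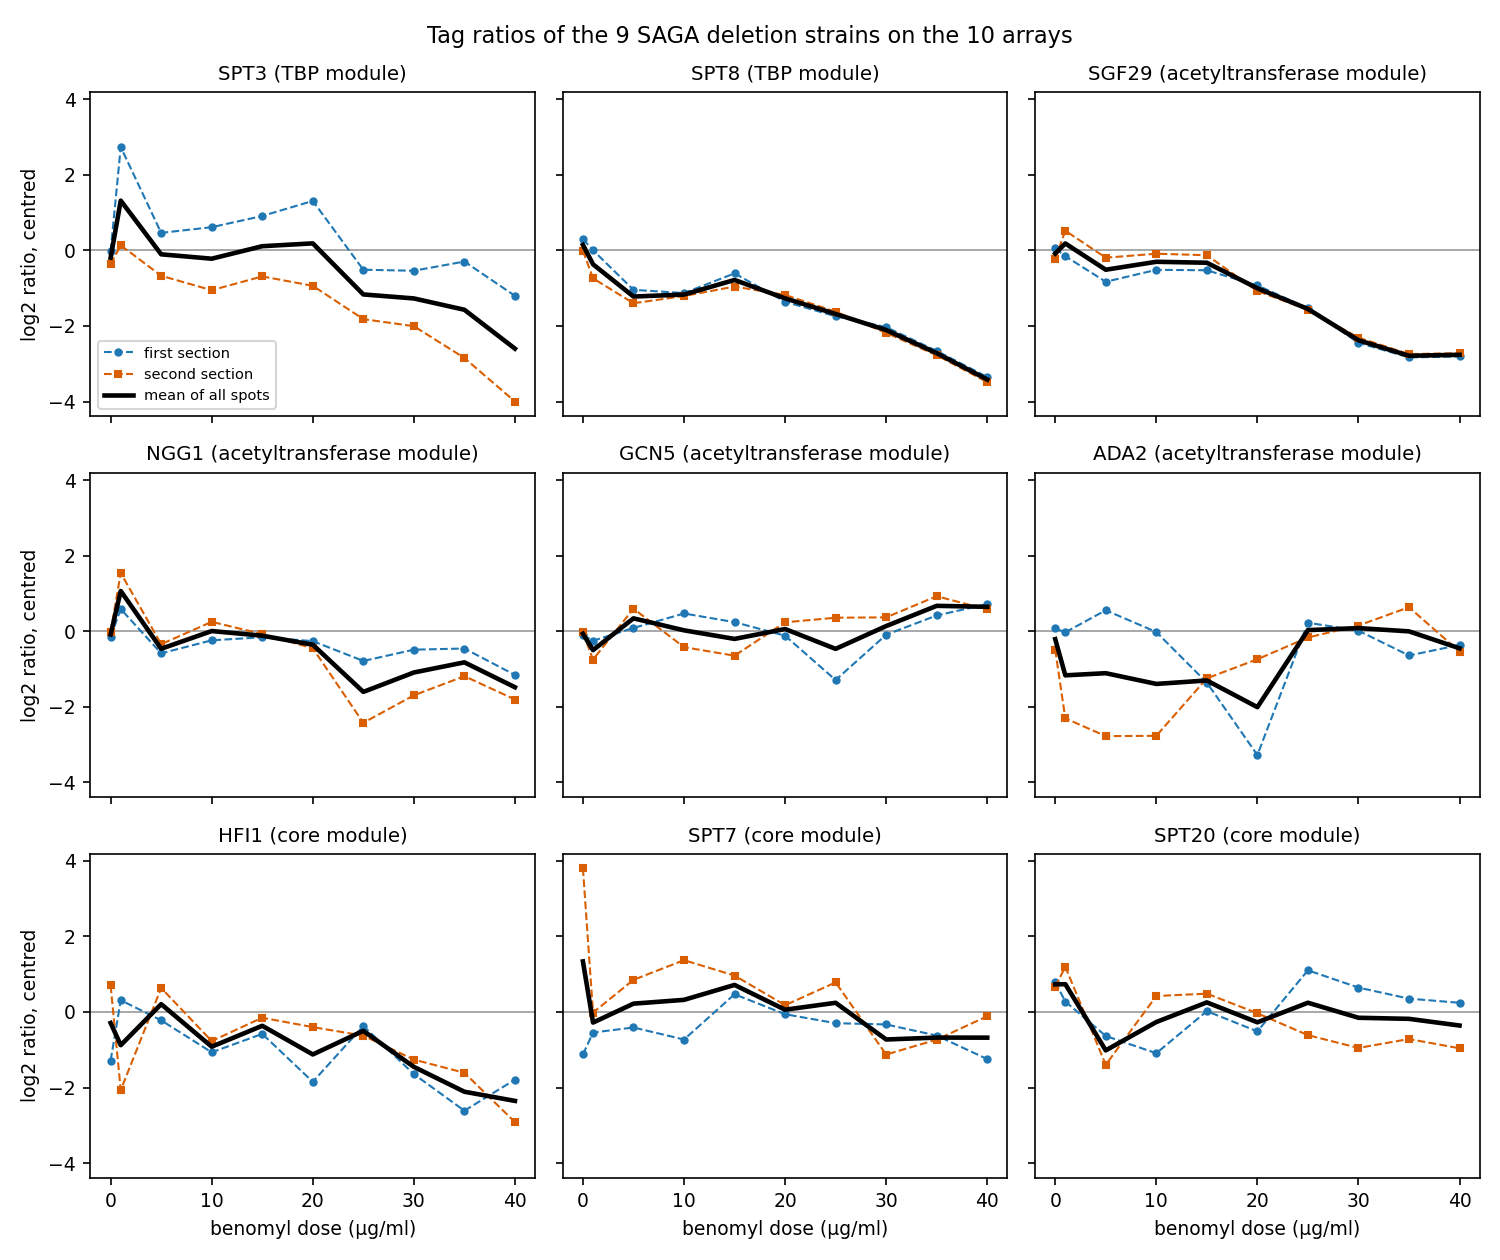
Centred log2 tag ratio (vertical axis, likely no drug over drug) of the 9 SAGA deletion strains against benomyl dose in µg/ml (horizontal axis). Dashed lines join the means of the first (blue circles) and second (orange squares) section of the array layout, the black line joins the mean of all spots, and there is 1 array at each dose. The 2 sections of SPT8 and SGF29 nearly coincide and end between -3.49 and -2.72 at 40 µg/ml, those of ADA2 and SPT7 lie far apart at low dose, and GCN5 ends at 0.65.

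In the TBP module both strains fell. SPT8 (YLR055C) had mean log2 ratios of 0.15 at 0 µg/ml, -0.37 at 1, -1.22 at 5, -1.17 at 10, -0.78 at 15, -1.27 at 20, -1.68 at 25, -2.11 at 30, -2.72 at 35 and -3.42 at 40 µg/ml. From 20 µg/ml on, every array was lower than the one before it, and at 5 µg/ml the strain already lay more than 2-fold below the median. At 40 µg/ml the ratio was 10.7-fold below that of the median strain. Of all strains 72.2% were lower than SPT8 without drug, 9.01% at 5 µg/ml and 2.46% at the top dose. Its fitted change was -2.81 ± 0.37 (SE, n = 10 arrays, limma adjusted p = 0.000679). The 6 repeated spots of a section differed little, with a root mean square SD of 0.07 in either section. In the first section at 35 µg/ml and the second at 40 µg/ml all 6 were equal, where ratios in whole hundredths can hide scatter. Both sections gave a fall, of -3.02 ± 0.37 in the first and -2.60 ± 0.42 in the second.

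SPT3 (YDR392W) had mean log2 ratios of -0.19 at 0 µg/ml, 1.32 at 1, -0.10 at 5, -0.22 at 10, 0.11 at 15, 0.19 at 20, -1.17 at 25, -1.27 at 30, -1.57 at 35 and -2.60 at 40 µg/ml. The arrays at 0 to 20 µg/ml lay near the median apart from a high value at 1 µg/ml, and those from 25 µg/ml on lay below it. The fitted change was -2.69 ± 0.51 (limma adjusted p = 0.00437). The call was lost after quantile normalization at -2.20 (limma adjusted p = 0.0612), against log2(dose + 1) at -2.25 (limma adjusted p = 0.0779) and with arrays scaled to equal spread at -2.11 (limma adjusted p = 0.119). The sections of SPT3 differed. The 6 spots of the second section agreed closely, with an SD of 0.07, and gave -0.37, 0.14, -0.67, -1.05, -0.69, -0.94, -1.82, -2.0, -2.85 and -4.0 over the 10 doses. At 40 µg/ml all 6 of these spots gave the same value, a deposited ratio of 0.07, and ratios in whole hundredths can hide scatter there. At the 2 highest doses the second section of SPT8 was at -2.78 and -3.49. The spots of the first section scattered with an SD of 0.74, larger than in 92.4% of the 793 strains with 5 to 7 spots in a section, and their mean reached 2.74 at 1 µg/ml and lay at -1.20 on the array of highest dose. With the second section alone SPT3 fell by 3.29 ± 0.44 (limma adjusted p = 0.00134), and with the first alone its change was -2.17 ± 0.74 (limma adjusted p = 0.0663).

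No difference between the trends of the 2 TBP module strains was detected over 10 arrays. The fitted change of SPT3 minus that of SPT8 was 0.13, with a 95% interval of -1.13 to 1.38, and a permutation test of the doses over the arrays gave p = 0.834. On the arrays of 4 days alone, with doses from 20 to 40 µg/ml, both still fell, with changes of -4.78 ± 0.98 for SPT3 (limma adjusted p = 0.0392) and -4.27 ± 0.81 for SPT8 (limma adjusted p = 0.0313), scaled to a span of 40 µg/ml. That test called 2.95% of all strains lower and no other of the 9.

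In the acetyltransferase module SGF29 and NGG1 fell, and the catalytic subunit GCN5 did not. SGF29 (YCL010C) had mean log2 ratios of -0.08 at 0 µg/ml, 0.18 at 1, -0.51 at 5, -0.30 at 10, -0.33 at 15, -1.0 at 20, -1.55 at 25, -2.38 at 30, -2.79 at 35 and -2.76 at 40 µg/ml. It stayed within 0.51 of the median up to 15 µg/ml, went down from 20 µg/ml on and was level between 35 and 40 µg/ml, where its ratio was 6.91-fold and 6.79-fold below that of the median strain. The fitted change of -3.07 ± 0.34 (limma adjusted p = 0.00028) was the lowest of the 9 strains and ranked 130th from the lowest of all 5325. The 2 spots of SGF29 gave -2.91 ± 0.36 and -3.23 ± 0.38. On the 4-day arrays alone its change was -3.81 ± 0.90 (limma adjusted p = 0.0569).

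NGG1 (YDR176W) had mean log2 ratios of -0.09 at 0 µg/ml, 1.06 at 1, -0.46 at 5, 0.00 at 10, -0.12 at 15, -0.36 at 20, -1.61 at 25, -1.09 at 30, -0.82 at 35 and -1.48 at 40 µg/ml. In the mean of all spots the 4 arrays from 25 µg/ml on were lower than all 6 below that dose. That cut was taken from these values, and the share of all strains that separate there was not counted. The first section alone did not separate, at -0.49 at 30 and -0.46 at 35 µg/ml against -0.59 at 5 µg/ml. The fitted change was -1.78 ± 0.45 (limma adjusted p = 0.0174). Leaving out the 1 µg/ml array ended the call, at -1.38 (limma adjusted p = 0.0563), as did leaving out the one at 40 µg/ml, at -1.78 (limma adjusted p = 0.0671). As with SPT3, the spots of the second section agreed (SD of 0.13) and those of the first did not (SD of 0.91). The second section fell by 2.64 ± 0.63, and the first had a change of -0.92 ± 0.34 (limma adjusted p = 0.0881).

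GCN5 (YGR252W) had mean log2 ratios of -0.07 at 0 µg/ml, -0.50 at 1, 0.34 at 5, 0.02 at 10, -0.20 at 15, 0.06 at 20, -0.47 at 25, 0.14 at 30, 0.67 at 35 and 0.65 at 40 µg/ml. It was never as much as 2-fold from the median, and the 2 highest values were at the 2 highest doses. The fitted change was 0.65 ± 0.34 (limma adjusted p = 0.206), with a 95% interval of -0.10 to 1.40. Its sections gave 0.29 ± 0.51 and 1.02 ± 0.43, neither past the threshold, and were farthest apart at 25 µg/ml, at -1.29 and 0.36. The repeated spots within a section had SDs of 0.14 and 0.08, against medians of 0.10 and 0.11 over the 793 strains.

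ADA2 (YDR448W) had mean log2 ratios of -0.21 at 0 µg/ml, -1.17 at 1, -1.11 at 5, -1.40 at 10, -1.30 at 15, -2.01 at 20, 0.03 at 25, 0.08 at 30, 0.00 at 35 and -0.45 at 40 µg/ml. It was low from 1 to 20 µg/ml and close to the median from 25 µg/ml on, which is the reverse of the order seen in SGF29. Its fitted change was 0.90 ± 0.59 (limma adjusted p = 0.306). The spots of the first and second section were both low at 15 µg/ml, at -1.36 and -1.25, but were far apart on the other low arrays, such as those at 5 µg/ml (0.55 and -2.78) and 20 µg/ml (-3.28 and -0.74). With 1 spot in each section, the scatter of repeated spots could not be measured for ADA2.

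In the core HFI1 fell and SPT7 and SPT20 did not pass. HFI1 (YPL254W) had mean log2 ratios of -0.29 at 0 µg/ml, -0.88 at 1, 0.21 at 5, -0.92 at 10, -0.37 at 15, -1.12 at 20, -0.50 at 25, -1.45 at 30, -2.11 at 35 and -2.35 at 40 µg/ml. The 3 highest doses gave the 3 lowest values, but its place among all strains was lowest at 1 µg/ml. Of all strains 4.4% were lower there, 5.11% at 35 and 4.94% at 40 µg/ml, against 21.5% without drug and 62% at 5 µg/ml. The fitted change was -1.84 ± 0.45 (limma adjusted p = 0.0149). It did not pass after quantile normalization, at -0.82 (limma adjusted p = 0.407). Nor did it pass when the 35 µg/ml array was left out, at -1.66 (limma adjusted p = 0.0518), or the one at 40 µg/ml, at -1.56 (limma adjusted p = 0.0865). The 2 sections had like fitted changes, of -1.71 ± 0.60 and -1.97 ± 0.81, of which neither passed on its own. Their values over the 10 arrays correlated at r of 0.25 only. At 1 µg/ml, where the place was lowest, they were at 0.31 and -2.07.

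SPT7 (YBR081C) had mean log2 ratios of 1.34 at 0 µg/ml, -0.28 at 1, 0.22 at 5, 0.32 at 10, 0.72 at 15, 0.06 at 20, 0.24 at 25, -0.73 at 30, -0.68 at 35 and -0.68 at 40 µg/ml. The highest value was on the array without drug, where 98.9% of strains were lower, and the 3 lowest were at the 3 highest doses. The fitted change was -1.32 ± 0.44 (limma adjusted p = 0.058). The sections differed, at -0.10 ± 0.47 in the first and -2.55 ± 0.91 in the second. Without the 1 µg/ml array SPT7 passed the threshold, at -1.78 (limma adjusted p = 0.0155), and so it did with the median of its spots in place of their mean, at -1.43 (limma adjusted p = 0.0404). Without the array at 0 µg/ml, on which its sections were farthest apart, the change was -0.94 (limma adjusted p = 0.177).

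SPT20 (YOL148C) had mean log2 ratios of 0.73 at 0 µg/ml, 0.74 at 1, -1.02 at 5, -0.27 at 10, 0.25 at 15, -0.27 at 20, 0.25 at 25, -0.15 at 30, -0.18 at 35 and -0.36 at 40 µg/ml. Apart from the 2 arrays of lowest dose and the one at 5 µg/ml, it stayed within 0.36 of the median. The fitted change was -0.50 ± 0.47 (limma adjusted p = 0.482), and its sections had opposite signs, at 0.52 ± 0.60 and -1.49 ± 0.62. Without single arrays the fitted change of SPT20 ranged from -0.91 (without 5 µg/ml, limma adjusted p = 0.0736) to -0.20 (without 0 µg/ml, limma adjusted p = 0.824). The repeated spots of SPT20 scattered in both sections, with SDs of 0.71 and 0.84.

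**Figure D2:**
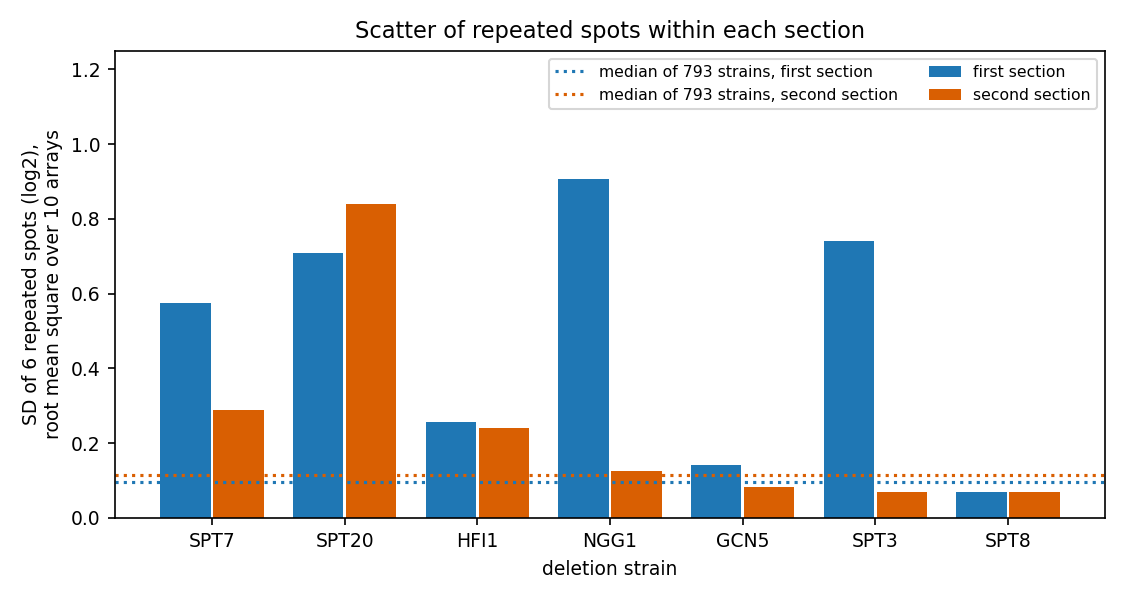
Scatter of the 6 repeated spots within each section of the array layout (vertical axis, SD on the log2 scale, root mean square over the 10 arrays) for the 7 SAGA deletion strains with 12 spots (horizontal axis). Blue and orange bars stand for the first and second section, and dotted lines mark the medians of 793 strains, at 0.10 and 0.11. SPT8 lies below both medians, and SPT20 lies far above them in both sections at 0.71 and 0.84.

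**Figure D3:**
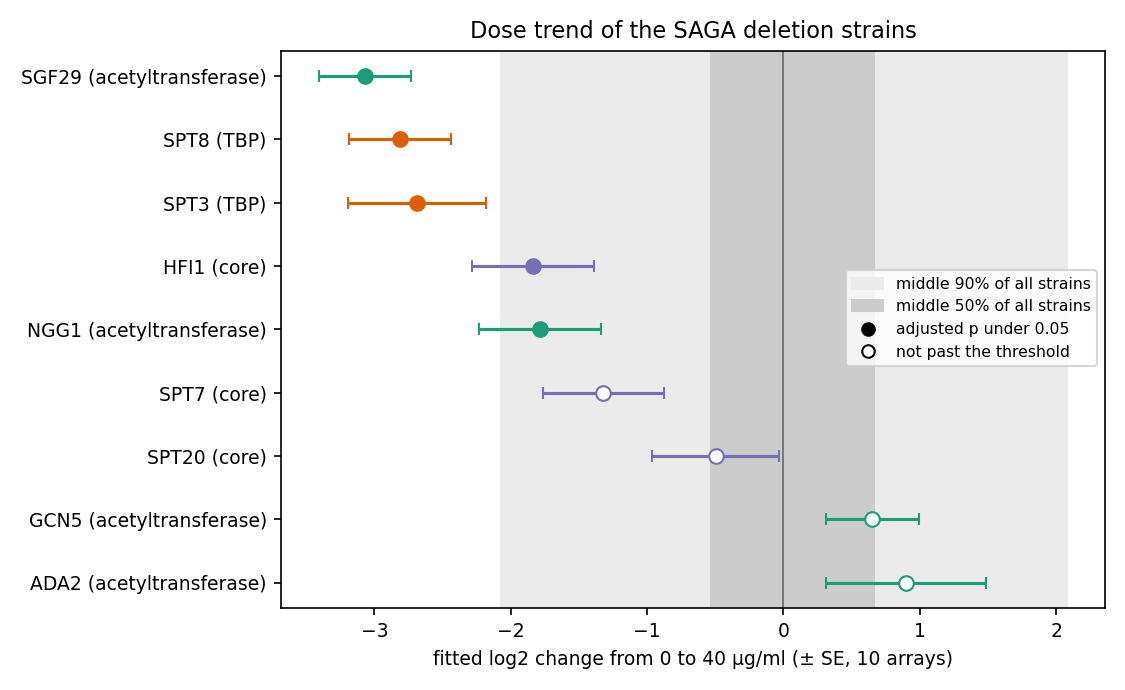
Fitted log2 change in tag ratio from 0 to 40 µg/ml (horizontal axis, ± SE of a line over 10 arrays) for the 9 SAGA deletion strains (rows, with their module). Filled points passed an adjusted p of 0.05 over 5325 strains, and the wider and narrower grey bands (-2.07 to 2.08 and -0.53 to 0.67) hold the middle of all strains. SGF29, SPT8 and SPT3 lie below the wider band, at -3.07, -2.81 and -2.69.

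Strains were then compared with each other on the same arrays. For each of 36 pairs the difference in log2 ratio was fitted against dose, and the slope was tested with 100000 permutations of the doses, two-sided, with p-values adjusted over the 36 pairs. How often pairs of other strains differ was not tested. There were 15 pairs past the threshold. The largest of these separated the acetyltransferase module within itself. The fitted change of ADA2 minus that of SGF29 was 3.97 ± 0.90 (SE, adjusted permutation p = 0.0173). The ADA2 side rests on 2 spots whose own changes were unlike, at -0.59 ± 0.96 in the first section and 2.39 ± 0.77 in the second. The fitted change of GCN5 minus that of SGF29 was 3.72 ± 0.57 (adjusted permutation p = 0.00396). GCN5 also differed from NGG1, its partner in the module, where NGG1 minus GCN5 was -2.44 ± 0.57 (adjusted permutation p = 0.0116).

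GCN5 differed from SPT8 by 3.47 ± 0.63 and from SPT3 by 3.34 ± 0.76, while HFI1 minus GCN5 was -2.49 ± 0.65 and SPT7 minus GCN5 was -1.98 ± 0.61, all past the threshold in the permutation test. In the core, SPT20 differed from SPT8 by 2.32 ± 0.37 and from SPT3 by 2.19 ± 0.68, and SPT7 differed from SPT8 by 1.49 ± 0.42. No pair within the core passed. SPT7 minus HFI1 was 0.52 with a 95% interval of -0.59 to 1.62, which leaves room for a difference of more than 2-fold. SGF29 minus SPT8 was -0.26 with an interval of -1.16 to 0.65. These tests depended on the highest dose and on the spread of the arrays. Without the 40 µg/ml array 3 pairs passed, with arrays scaled to equal spread 2 passed (GCN5 against SGF29 and against SPT8), and against log2(dose + 1) none passed, where 10 had an unadjusted permutation p under 0.05.

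**Figure D4:**
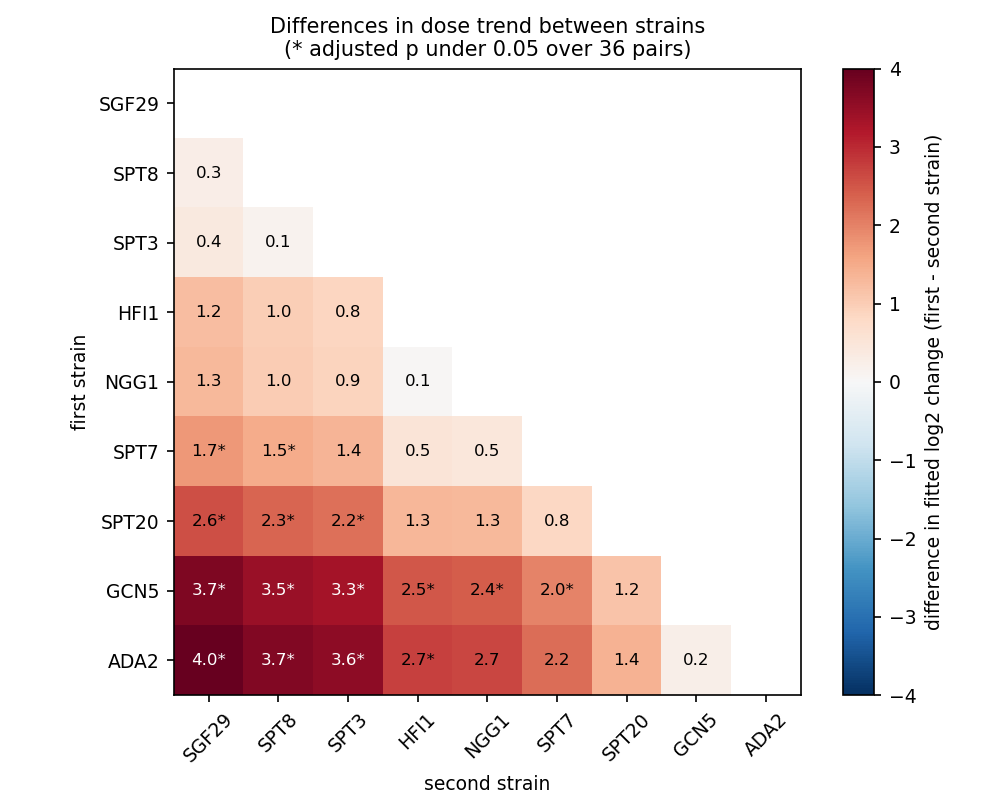
Difference in fitted log2 change from 0 to 40 µg/ml between each pair of the 9 SAGA deletion strains, row (first strain) minus column (second strain), over 10 arrays. Stars mark the 15 of 36 pairs past an adjusted permutation p of 0.05, and strains are ordered from the lowest change (SGF29) to the highest (ADA2). The dark lower left block holds the differences of GCN5 and ADA2 from SGF29, SPT8 and SPT3, between 3.34 and 3.97.

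Counted array by array, those of the 9 strains that lay at least 2-fold below the median were none without drug and up to 5 at high dose. At 0 µg/ml none of the 9 did, where 3.83% of all strains did, and at 1 µg/ml ADA2 alone did (3.55% of all strains). At 5 µg/ml there were 3 (SPT20, ADA2 and SPT8, 12.1% of all), at 10 µg/ml 2 (ADA2 and SPT8, 12.7%) and at 15 µg/ml ADA2 alone (7.46%). At 20 µg/ml there were 4 (HFI1, ADA2, SGF29 and SPT8, 7.1%), at 25 µg/ml 4 (NGG1, SGF29, SPT3 and SPT8, 9.88%) and at 35 µg/ml 4 (HFI1, SGF29, SPT3 and SPT8, 14.3%). The 5 strains HFI1, NGG1, SGF29, SPT3 and SPT8 were all that low at 30 µg/ml (12.5% of all strains), and the same 5 were at 40 µg/ml (18.1%). At least 2-fold above the median were SPT7 at 0 µg/ml (2.42% of all strains) and NGG1 and SPT3 at 1 µg/ml (3.91%). None was that high from 5 µg/ml on, where the shares of all strains, in order of dose, were 6.29%, 5.37%, 4.3%, 5.71%, 10.6%, 11.1%, 14.8% and 19.3%. These counts use the mean of all spots, and some were not 2-fold low in both sections. The first section of SPT3 was at -0.51, -0.54 and -0.29 at 25, 30 and 35 µg/ml. That of NGG1 was at -0.79 and -0.49 at 25 and 30 µg/ml. The first spot of ADA2 was at -0.03, 0.55 and -0.02 at 1, 5 and 10 µg/ml. Single arrays allow no test of these counts.

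The 5 arrays of 4 days (20 to 40 µg/ml) were also compared with the 4 arrays of 2 days (0 to 10 µg/ml), which does not assume a straight line. Of the 9 strains SGF29 alone passed. It averaged -2.10 ± 0.79 (SD, n = 5 arrays) at 4 days and -0.18 ± 0.30 (SD, n = 4 arrays) at 2 days, a difference of -1.92 ± 0.39 (SE, limma adjusted p = 0.0477). The test called 14 of 5325 strains lower, or 0.263%, and 46 higher, or 0.864%. The SGF29 call held when the 20 µg/ml array was left out, and it was lost in each of the other 8 cases of leaving out 1 array, with differences of -2.05 to -1.75.

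For SGF29 and SPT8 every 4-day array was below every 2-day array, as for 2.42% of all strains. SPT8 ranged from -3.42 to -1.27 over the 4-day arrays, with a median of -2.11, and from -1.22 to 0.15 over the 2-day arrays, a difference of -1.59 ± 0.46 (limma adjusted p = 0.110). The groups of the other 7 strains overlapped. SPT3 differed by -1.48 ± 0.52 (limma adjusted p = 0.161), NGG1 by -1.20 ± 0.36 (limma adjusted p = 0.117) and HFI1 by -1.04 ± 0.41 (limma adjusted p = 0.195). Without the 20 µg/ml array SPT3, SPT8 and NGG1 passed too, at -1.85, -1.83 and -1.38, in a test that then called 216 strains lower (4.06%) and 279 higher.

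The number of the 9 strains called lower in the dose trend moved with the processing, and so did the share of all strains. It was 6 with the median of the spots (9.09% of all strains), 5 with the ratios as deposited (7.12%), 4 with the second section alone (7.22%) and 2 with the first alone (8.17%). It was 2 after quantile normalization (2.7%), 1 with arrays scaled to equal spread (0.714%), 2 against log2(dose + 1) (4.88%), 3 with selection days as a covariate (3.42%) and 2 on the 4-day arrays (2.95%). It was 5 without the 1 µg/ml array (6.03%), 4 without the one at 35 µg/ml (6.5%) and 3 without the one at 40 µg/ml (5.78%). SPT8 was called in each of these but equal spread, and SGF29 in each but the 4-day arrays.

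With selection days as a covariate, SGF29, SPT3 and SPT8 kept their calls, at -3.52 ± 0.83, -4.52 ± 1.11 and -4.51 ± 0.72, and HFI1 and NGG1 lost them, at -2.91 (limma adjusted p = 0.13) and -1.43 (limma adjusted p = 0.473). With arrays scaled to equal spread SGF29 alone was called, and SPT8 had a change of -1.57 (limma adjusted p = 0.0543), SPT3 of -2.11 (limma adjusted p = 0.119), NGG1 of -1.53 (limma adjusted p = 0.2) and HFI1 of -0.64 (limma adjusted p = 0.494). Among the 2-day arrays alone limma called none of the 9 and no other strain (0%), none of the 9 had an unadjusted p under 0.05 for a fall, and 199 of all strains had one for a rise and 320 for a fall.

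The strains most like the median course of the 9, over the 10 arrays that all strains share, lacked RPL20B (a protein of the large ribosomal subunit), TIP41 (a regulator of TOR signalling), ERD1 (needed to retain proteins of the endoplasmic reticulum), MBP1 (the DNA-binding subunit of the cell cycle factor MBF), SWI4 (that of SBF) and CLF1 (a splicing factor), with Pearson r of 0.97, 0.97, 0.97, 0.96, 0.96 and 0.96. Their own values at 40 µg/ml were -5.65, -1.49, -2.06, -3.55, -4.55 and -1.49, against -1.48 for the median of the 9. With 10 arrays a high r is common. For SGF29, SPT8 and SPT3 there were 166, 179 and 61 strains with r above 0.9, and for SPT7 there was 1.

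The most like strain of each member was never another member, but it was picked from 5324 other strains, few of which were members. It was ELP2 for SPT3 (r of 0.97), LSM2 for SPT8 (0.99), FAR3 for SGF29 (0.99), GAC1 for NGG1 (0.94), MDG1 for GCN5 (0.96), ECM22 for ADA2 (0.96), YHI9 for HFI1 (0.95), APT2 for SPT7 (0.92) and ATG11 for SPT20 (0.92). With the 5324 others ranked by r, the best other member came 21st for NGG1, 38th for SPT7, 71st for SPT3 and 80th for SGF29. It came 104th for HFI1, 105th for SPT8, 596th for SPT20, 1982nd for ADA2 and 2262nd for GCN5. The closest members to each other were SGF29 and SPT8, with r of 0.93, followed by SPT3 and SGF29 with 0.90 and NGG1 and SPT3 with 0.89. GCN5 and ADA2 had r of 0.193 with each other. With all remaining members GCN5 had negative r, from -0.71 (SPT8) to -0.44 (NGG1). ADA2 had r of 0.185 with SPT20 and negative r with the rest, from -0.64 (SPT3) to -0.24 (SPT7).

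The other subunits of SAGA and its relatives did not move as a block either. In the deubiquitinase module, SGF73, which anchors the module, had a log2 ratio of -4.24 at 40 µg/ml, against -0.97 without drug, and fell by 3.28 ± 0.62 (limma adjusted p = 0.00437). SGF11 and the protease gene UBP8 were at 0.04 ± 0.36 and 0.08 ± 0.49, and SUS1 was not analysed here. AHC1 and AHC2, subunits of the smaller ADA complex that shares Gcn5, were at 0.14 ± 0.31 and -0.25 ± 0.30, and neither passed. RTG2, a subunit of the SAGA variant SLIK that also acts in mitochondrial signalling, rose by 3.61 ± 0.74 (limma adjusted p = 0.00631), with values of 1.64 at 5 µg/ml and 4.27 at 40 µg/ml.

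In other acetyltransferase complexes, most NuA4 strains rose and no NuA3 strain passed. Among 5 measured strains of NuA4, 4 rose, against 10.3% of all strains, and no strain fell (median change 2.23). NuA4 is the main histone H4 acetyltransferase. EAF1, its platform subunit, rose by 3.03 ± 0.56, EAF3 by 2.73 ± 0.53, EAF5 by 2.23 ± 0.70 and EAF7 by 1.85 ± 0.56 (limma adjusted p of 0.00405, 0.00499, 0.0445 and 0.0404). Up to 30 µg/ml EAF5 and EAF7 lay between -0.56 and 0.605, and at 40 µg/ml they were at 3.25 and 2.68. All 3 measured strains of NuA3, an H3 acetyltransferase, had changes below 0, with a median of -0.95, and none passed (limma adjusted p of 0.0598 to 0.138). Of 6 further acetyltransferase strains, SAS2 rose by 3.83 ± 0.79 (limma adjusted p = 0.00647), and SAS4 and SAS5 of the same complex were at -0.22 ± 0.49 and 0.60 ± 0.29, not past the threshold.

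For comparison, 6 subunits of TFIID or SAGA that haploid cells need for growth, or TBP itself, were measured, namely TAF5, TAF6, TAF9, TAF10, TAF12 and SPT15. None passed, with changes from -1.31 to 0.80 and a median of -0.50. Their sections differed by a mean of 0.80 to 1.76 on the log2 scale. Of all strains 65.4% had a smaller gap than the lowest of these, and 95.4% a smaller gap than the highest. Gaps in that range are thus common. The gaps of SPT7, SPT20, HFI1 and ADA2 lay in that range, that of SPT3 lay just above it at 1.77, and those of SPT8, SGF29, GCN5 and NGG1 lay below it, at 0.25 to 0.63.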

How the data were processed

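The authors deposited 1 table of log2 ratios per spot, for 22575 spots and 10 arrays. Scanning (GenePix 4000B) and spot reading (GenePix 5.1) are per the labels' protocols. Numerator, centring and other steps are not given in the sources used here. Column medians over named spots were -0.08 to 0.19 on the log2 scale.

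The platform annotation named 18794 spots for 5325 genes, and 5321 took their current symbol by gene number. A total of 18 values coding a failed ratio were set to missing. Arrays were centred on the median of named spots, and spots were averaged per gene. Sections are the spots up to and beyond position 10971. All genes had values on at least 8 arrays.

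Lines against dose and group means were fitted over all strains with limma 3.58.1 (lmFit, eBayes) in R 4.3.3, with Benjamini and Hochberg adjustment over all strains and a threshold of 0.05. The intervals are at 95%. The script was tested on simulated data. Pairs of members were tested by permutation with numpy 2.4.6 in Python 3.11.15. Arrays correlated pairwise at 0.01 to 0.85 over strains, so none ran against the others. Those at 0 and 1 µg/ml were nearly unrelated to the rest, with r of 0.19 or lower. On 9 arrays 99.66% to 99.98% of the named spots' ratios were whole hundredths (within 0.002 hundredths) and on the 10 µg/ml array 2.39%, which limits precision at low ratios (the lowest spot of a member was at 0.05). The number of arrays limits the precision otherwise.

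Named are the 9 members, the fixed lists of related genes, the 6 strains most like the members' median course and the 1 most like each member, by Pearson r. Members and lists were chosen with earlier results of these data known. Alternatives varied centring, spread, spot summary, section, dose scale, days and arrays left out. Choosing for each strain the section whose repeated spots scatter less was added after the data were seen. The list genes SUS1, TRA1 and YNG2 were not analysed here.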

Additional observations from a re-analysis of the deposited data

Results flagged for a closer look

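In 18 groups (9 strains on the 4-day and on the 2-day arrays), 2 held an array far from the others by Dixon's test, which chance gives in about 1 of 20 groups. On the 4-day arrays ADA2 was at -2.01 at 20 µg/ml, while the other 4 arrays lay between -0.45 and 0.08. Its spots of the first and second section were there at -3.28 and -0.74. On the 2-day arrays SPT3 was at 1.32 at 1 µg/ml, while the other 3 lay between -0.22 and -0.10. The first section was there at 2.74, with spots from 1.52 to 3.70, and the second at 0.14, with spots from -0.03 to 0.37.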

How the results depend on the processing

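The number of the 9 strains whose ratio fell with dose was 5 in the analysis above. It was 1 with arrays scaled to equal spread, 2 after quantile normalization, with the first section only, against log2(dose + 1) and on the 4-day arrays only, 3 with days as a covariate, 0 in limma on the 2-day arrays (0 also unadjusted) and 3 to 5 without single arrays. All strains called higher and lower, 547 and 486 above, were 55 and 38 with equal spread, 111 and 144 after quantile normalization, 232 and 260 against log2(dose + 1), 157 and 182 with days, 93 and 157 on the 4-day arrays, 0 and 0 in limma on the 2-day arrays (199 and 320 unadjusted), and 314 to 614 and 308 to 545 without single arrays. On ratios as deposited 851 rose and 379 fell, with the median change of all strains at 0.33 in place of 0.09, and the same 5 members fell. The fitted change of SPT20 was 0.52 in the first section, which was also its less scattered one, and that of ADA2 was -0.59 in the first section and -3.32 on the 2-day arrays, none past the threshold. Pairs that differed, 15 above, were 2 with equal spread, 2 after quantile normalization, 0 against log2(dose + 1) by the permutation test (10 unadjusted) and 3 to 18 without single arrays. For 4-day against 2-day arrays, 46 strains were higher and 14 lower above. They were 21 and 2 with equal spread, 21 higher after quantile normalization, 21 and 3 in the first section, 11 and 1 in the second, and 4 to 279 and 0 to 216 without single arrays. Members lower, 1 above, were 0 in either section by limma (3 and 5 unadjusted) and 0 to 4 without single arrays (4 to 6 unadjusted where 0). In the first section SPT7 differed by 0.19, SPT20 by 0.53 (also the less scattered section), ADA2 by -0.95 and GCN5 by -0.12, and SPT20 ranged from -0.54 to 0.039 without single arrays, none past the threshold. Exact permutation of the 4-day and 2-day arrays gave an unadjusted p of 0.0159 for SGF29 and SPT8, 0.0238 for NGG1 and 0.0397 for SPT3. The causes of these changes were not tested. The 4-day and 2-day arrays could not be paired with each other because each dose had 1 array.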

Other observations

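On the array without drug in either pool, the 6 spots of SPT7 in the second section lay between 3.28 and 4.30 on the log2 scale and those in the first section between -2.28 and -0.56. On no other array was a section mean of SPT7 above 1.37. The sections of HFI1 were opposite on the 2 arrays of lowest dose, with closely grouped spots in each. At 0 µg/ml its first section was at -1.28 (spots from -1.74 to -0.93) and its second at 0.70 (0.57 to 0.94), and at 1 µg/ml they were at 0.31 (-0.27 to 0.73) and -2.07 (-2.72 to -1.58).

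Across the 10 arrays the 2 sections of a strain correlated at r of 0.98 for SPT8, 0.97 for SGF29, 0.88 for NGG1 and 0.80 for SPT3, and at 0.25 or lower for HFI1, GCN5, SPT20, ADA2 and SPT7. These are descriptions over arrays that all strains share.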
